A study of Mus musculus with 3 samples.

Results

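Retinoic acid signaling was examined through 9 genes that take up, bind, make, degrade or sense this vitamin A derivative: Stra6, Crabp1, Crabp2, Aldh1a2, Aldh1a3, Cyp26a1, Cyp26b1, Rara and Rarb. They were chosen by name, and a probe was counted for a gene where the RefSeq transcript it carries belongs to that gene. All 9 genes were on the array, through 11 of its 55681 mouse probes (2 each for Rara and Rarb and 1 for each other gene), among 20145 genes that could be named. The gene expression of 3 sorted mouse cell populations had been measured on 1 one-color Agilent array each. ES GFP+ and ES GFP- cells (with and without Lhx6-GFP fluorescence) came from J14 embryonic stem (ES) cells, a male 129S4/SvJae line that carries an Lhx6-GFP BAC and, by its label, an mCherry enhancer reporter. These cells had been aggregated in medium with 10% KSR (a serum replacement) and Dkk-1 at 100 ng/ml, received the hedgehog agonist SAG at 6 nM from D3, were moved to N2 medium with SAG on D6, and were sorted on D12 into cells with and without GFP. MGE GFP+ cells were sorted for Lhx6-GFP from the medial ganglionic eminence (MGE) of E12.5 embryos of a CD1 mouse carrying the same kind of BAC, labeled female, and the number of embryos is not given in the sources used here. The BAC reports the activity of the Lhx6 regulatory sequence it contains, the J14 cells are 1 line, and the culture protocol in the labels names no retinoid among its added factors. Each population had 1 array, so no difference below has a replicate check, and no SD between cultures or embryos, test or p-value was computed.

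As background, retinol circulates on the carrier Rbp4 and enters cells through receptors such as Stra6. Retinol dehydrogenases oxidize it to retinaldehyde, the Aldh1a enzymes turn that into retinoic acid, Crabp1 and Crabp2 hold retinoic acid in the cytoplasm, and the Cyp26 enzymes oxidize and clear it. In the nucleus, retinoic acid receptors (Rara, Rarb, Rarg) pair with retinoid X receptors and bind response elements built from direct repeats of a short core sequence, and Rarb and Cyp26a1 are classic targets. In the embryo, retinoic acid patterns the hindbrain and spinal cord through Hox genes, and in the forebrain it comes from restricted sources such as the meninges and the developing eye and olfactory region.

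The response element can be read in the promoters of those classic targets. In RefSeq promoter windows of mouse build GRCm38.p6, from 250 bases before to 50 after each gene start, a direct repeat of the core (the consensus AGGTCA, its variants AGTTCA and, with a leading guanine, GGGTCA, or the form with both changes, GGTTCA) with 5 bases between the copies was searched on both strands. It was present in 31 of 27025 genes (0.115%). Of the member genes, 7 had at least 1 window (13 windows in all), and 2 of them, Rarb and Cyp26a1, held it. The repeat with 1 base between its copies (0.263% of genes) and that with 2 (0.311%) were in none of the 13 windows. The stretches around both matches, with the 2 core copies in capitals, are printed because Rarb and Cyp26a1 were the members with a match among the 7 searched. The Rarb stretch is chr14:16575477-16575584 on the minus strand and ends at the base before the gene start, with 36 bases between the match and the start. The Cyp26a1 stretch is chr19:37697721-37697807 on the plus strand, where the repeat lies on the opposite strand to the gene and 15 bases before its start.
Rarb: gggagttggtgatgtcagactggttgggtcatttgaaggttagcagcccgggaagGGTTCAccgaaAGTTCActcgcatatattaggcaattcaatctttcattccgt
Cyp26a1: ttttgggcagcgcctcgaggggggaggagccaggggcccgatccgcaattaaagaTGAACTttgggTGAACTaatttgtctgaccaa
A match describes these letters alone, and binding was not measured. The search found no match in the windows of Aldh1a2, Crabp1, Cyp26b1, Rara and Stra6.

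Values are the processed intensity of a probe, in arbitrary units after background subtraction. For differences, log2 intensity was set against the 75th percentile of each array. On the ES GFP+, ES GFP- and MGE GFP+ arrays in turn, that percentile was an intensity of 747, 843 and 576, and 90.6%, 80.3% and 77.1% of mouse probes were called well above background. The array also carries 106 control probes (E1A of adenovirus, and ERCC) that match no mouse transcript, and their 95th percentile was 377, 208 and 152. A probe at or under it is described as within the range of the control probes. Repeat spots of the same probe had an SD of 0.139 to 0.144 (log2), so that a ratio of 1.32 between 2 arrays equals 2 SDs of this spot error, which contains no biological variation. All 15 markers of the MGE and the Lhx6 lineage exceeded the control probes on each array, and their summed level was 163, 39.3 and 236 times the 75th percentile. With the scaling used here, 78.9% of the genes at least 2-fold different between ES GFP+ and ES GFP- cells were higher in the former, against 43.5% after quantile normalization across the arrays. For MGE GFP+ cells the shares that were higher were 36.5% against ES GFP- and 14.6% against ES GFP+ cells, compared with 44.1% and 51.7% after quantile normalization. The quantile normalized value is therefore given where a difference stated below turns direction under it, and for some others.

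Cyp26b1, which clears retinoic acid, was the member with the largest difference between the populations. Its probe (transcript NM_175475) read 548 in ES GFP+ cells, 4134 in ES GFP- cells and 81.7 in MGE GFP+ cells. The cells without Lhx6-GFP were thus far above both GFP+ populations, and the MGE cells lay within the range of the control probes (under 152). ES GFP+ cells were 6.67-fold below ES GFP- cells (log2 difference -2.74), and 0.56% of 18655 genes had a lower difference. MGE GFP+ cells were 34.6-fold below ES GFP- cells (log2 difference -5.11), with 0.41% of 17025 genes lower. Between the GFP+ populations the MGE cells were 5.18-fold lower (log2 difference -2.37), a comparison in which 8.79% of 18580 genes were lower still and the median gene was at -0.36. Under 7 other ways of processing the arrays these differences ranged from -3.18 to -2.42, from -5.11 to -4.03 and from -2.37 to -1.48, and each was over 2-fold under each of them. When the MGE value was raised to the control probe limit, the MGE cells were at least that far below, at log2 -4.22 against ES GFP- and -1.48 against ES GFP+ cells.

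**Figure D1:**
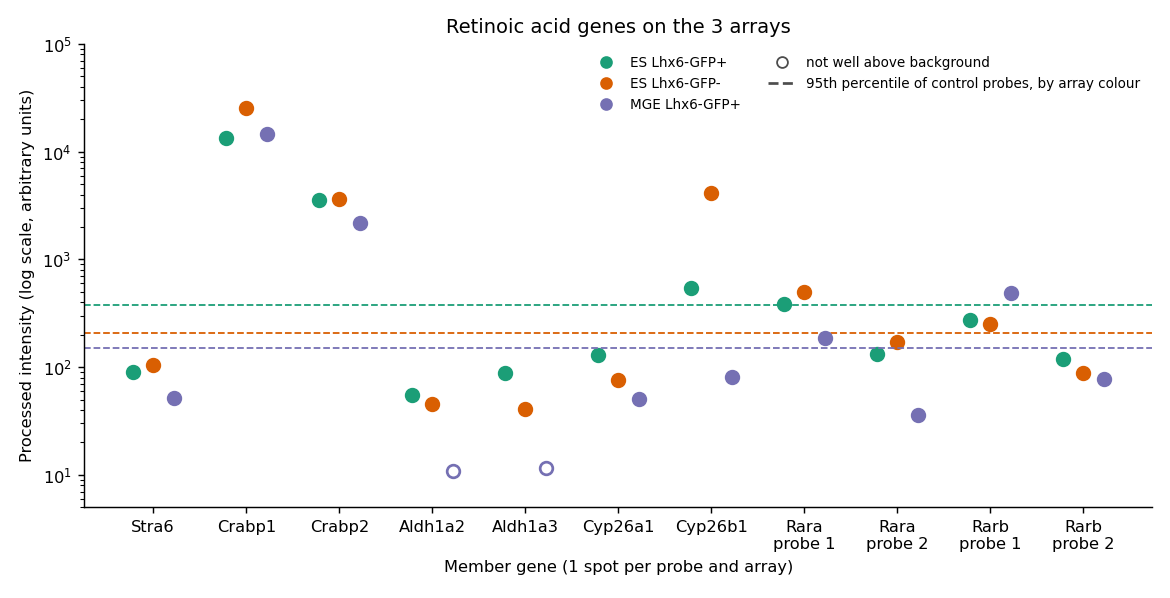
Processed intensity (log axis, arbitrary units) of the 11 probes of the 9 member genes on the ES GFP+ (green), ES GFP- (orange) and MGE GFP+ (purple) arrays, 1 point per probe and array, with open points not well above background and a dashed line in each array's color at the 95th percentile of its control probes. Crabp1 and Crabp2 lie above the lines on all 3 arrays, Cyp26b1 spans from 4134 to 81.7, and Stra6, Aldh1a2, Aldh1a3 and Cyp26a1 lie under each array's own line (heights of different probes are not comparable).

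Markers of other cell types were read beside Cyp26b1. Of 10 radial glia and progenitor markers, 10 exceeded the control probes in ES GFP- cells, against 5 in ES GFP+ and 6 in MGE GFP+ cells, with summed levels of 64.0, 12.5 and 15.8 times the 75th percentile. Of 12 meningeal and mesenchymal markers, 8, 3 and 1 exceeded the control probes in the same order, and in MGE cells 6 of the 12 were well above background. Their summed level did not follow that order, at 7.40, 6.93 and 12.9 times the 75th percentile. Their median log2 level against that percentile did, at -1.29, -3.26 and -5.25. The control probe limits also differed, at 208, 377 and 152 in that order. These markers did not move together between the ES-derived populations. There, 4 were higher and 4 lower by 2-fold in ES GFP+ than in ES GFP- cells, beside 24% and 6.4% of all genes. The 1 marker above the control probes in MGE cells was Zic1, which the study lists among globus pallidus markers. The part these cell types have in the Cyp26b1 difference was not tested. In bulk RNA, fewer cells that express a gene and less RNA of it per cell cannot be told apart.

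Cyp26a1, the other degrading enzyme and a carrier of the response element printed above, showed no such pattern. Its probe read 129 in ES GFP+, 75.5 in ES GFP- and 50.5 in MGE GFP+ cells, within the range of the control probes on each array. The log2 difference was 0.95 between ES GFP+ and ES GFP- cells and -0.03 between MGE GFP+ and ES GFP- cells. After quantile normalization these were 0.11 and 0.30, and between the GFP+ populations the sign turned, from -0.98 to 0.19. No setting put Cyp26a1 past 2-fold in any comparison.

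The cytoplasmic binding proteins gave strong signals in all 3 populations. Crabp1 (NM_013496) read 13451 in ES GFP+, 25275 in ES GFP- and 14756 in MGE GFP+ cells, above each of the 106 control probes on every array. The unscaled signal was highest in the cells without GFP. ES GFP+ cells were 1.66-fold below ES GFP- cells (log2 difference -0.73), past 2 SDs of the spot error, and the lower value held under each other setting, from -1.18 to -0.56. MGE GFP+ cells were 1.17-fold below ES GFP- cells, which is under 2 SDs. They were 1.42-fold above ES GFP+ cells (log2 difference 0.51), past 2 SDs, and 0.26 above after quantile normalization. Crabp2 (NM_007759), which hands retinoic acid to its receptors, read 3546, 3611 and 2191 in the same order. Its log2 differences of 0.15, -0.17 and -0.32 were all under 2 SDs of the spot error, although the last was -0.57 after quantile normalization.

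Stra6, the cell surface receptor for Rbp4, gave signals within the range of the control probes. Its probe read 90.3 in ES GFP+, 104 in ES GFP- and 51.6 in MGE GFP+ cells. The log2 difference was -0.04 between the ES-derived populations, or -0.94 after quantile normalization. Between the GFP+ populations it was -0.43, and 0.88 after quantile normalization, so no order of the populations can be read from this probe.

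The enzymes that make retinoic acid were also within the control range everywhere. Aldh1a2, the main enzyme of the early embryo and the meninges, read 54.6 in ES GFP+, 45.1 in ES GFP- and 10.8 in MGE GFP+ cells, the last not well above background. Between the ES-derived populations its log2 difference was 0.45, or -0.86 after quantile normalization. The MGE value was raised to the lowest signal called well above background on its array. With the scaling used here, MGE cells were then at least 2.55-fold below ES GFP- and at least 3.49-fold below ES GFP+ cells. After quantile normalization the log2 difference from ES GFP- cells was -0.68. Against ES GFP+ cells there was then no value, as the MGE level (log2 4.89) was not below theirs (4.84). Aldh1a3, known from the eye and the lateral ganglionic eminence, read 88.8, 40.6 and 11.6 in the same order, and again the MGE signal was not well above background. ES GFP+ cells were 2.47-fold above ES GFP- cells, but 1.09-fold after quantile normalization. MGE GFP+ cells were at least 2.29-fold below ES GFP- and at least 5.67-fold below ES GFP+ cells. After quantile normalization these bounds were log2 -0.57 and -0.70, under 2-fold. In the deposited log2 values, which contain no background subtraction, the MGE differences of both enzymes lay between -0.71 and -0.30.

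Of the receptors, Rara (NM_001177302) had 1 probe above the control range in all 3 populations. That probe read 386 in ES GFP+ cells, just over the limit of 377, 501 in ES GFP- cells and 187 in MGE GFP+ cells. The second Rara probe read 131, 171 and 36.3 and was within the range throughout. On the first probe alone, MGE GFP+ cells were 1.83-fold below ES GFP- and 1.59-fold below ES GFP+ cells, under 2-fold. The second probe, within the control range, put them 3.22-fold and 2.8-fold below. On the mean of both probes, MGE GFP+ cells were 2.42-fold below ES GFP- and 2.11-fold below ES GFP+ cells. After quantile normalization the mean was 1.83-fold and 1.21-fold below. In each comparison the mean passed 2-fold in 2 of 8 settings.

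Rarb (NM_011243), a receptor and itself a target through the repeat printed above, ran the other way on its brighter probe. That probe read 275 in ES GFP+, 253 in ES GFP- and 490 in MGE GFP+ cells, within the control range in the first population and above it in the others. MGE cells were 2.83-fold above ES GFP- and 2.31-fold above ES GFP+ cells on this probe, and log2 1.48 and 1.47 above after quantile normalization. The second Rarb probe, at 119, 87.7 and 77.0, was within the control range on each array and put MGE cells 1.29-fold above ES GFP- but 1.19-fold below ES GFP+ cells. With the scaling used here, the probes thus disagreed in direction against ES GFP+ cells. After quantile normalization they did not, as the second probe put MGE cells log2 0.59 above ES GFP- and 0.81 above ES GFP+ cells. In the deposited log2 values these differences were 0.25 and 0.35. With the scaling used here, the mean of both probes was log2 0.93 against ES GFP- and 0.48 against ES GFP+ cells and did not reach 2-fold. The mean reached 2-fold in 4 and 3 of 8 settings.

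**Figure D2:**
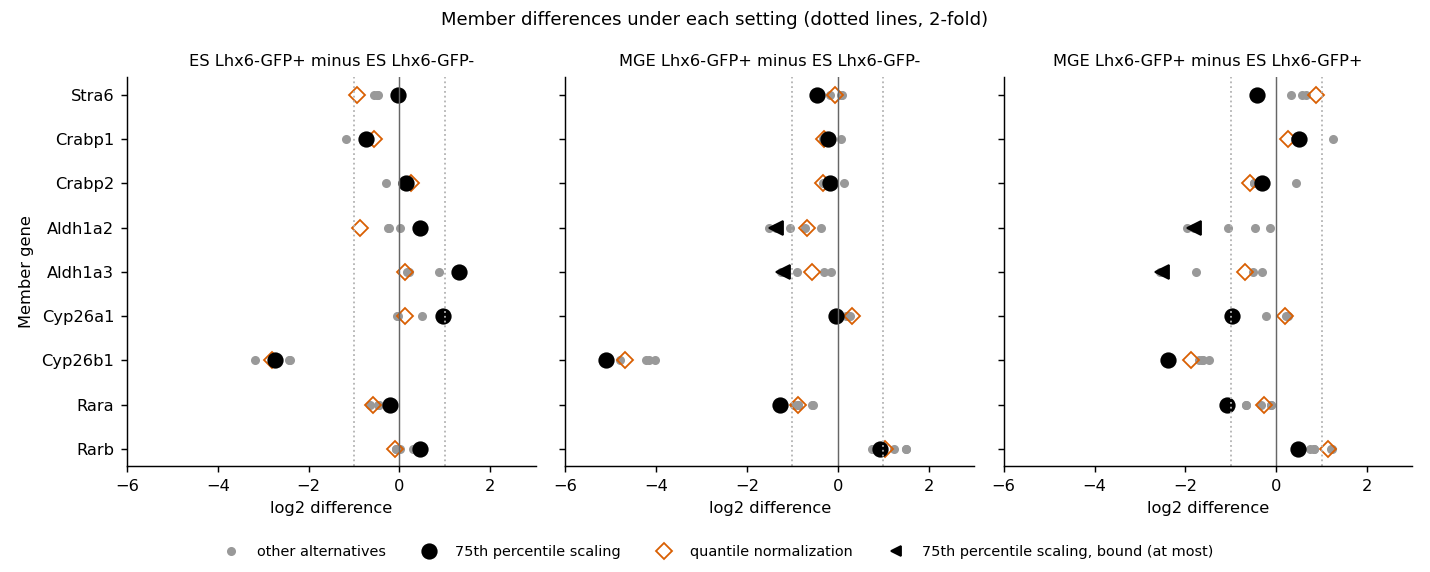
log2 difference of each member gene (rows) in the 3 comparisons (panels), with the 75th percentile scaling in black, triangles for bounds set by a signal not well above background, open diamonds for quantile normalization, gray points for the other settings and dotted lines at 2-fold. Cyp26b1 is past 2-fold in each panel under every setting, while the black points of Aldh1a2, Aldh1a3, Cyp26a1 and Stra6 lie apart from their diamonds in at least 1 panel.

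Counted together, 1 member was at least 2-fold higher in ES GFP+ than in ES GFP- cells (Aldh1a3) and 1 was lower (Cyp26b1), where 24% of all genes were higher and 6.4% were lower. In MGE GFP+ against ES GFP- cells, 0 members were higher and 4 were lower (Cyp26b1, Rara, Aldh1a2 and Aldh1a3), beside 9.9% and 17.2% of all genes. Against ES GFP+ cells, 0 were higher and the same 4 were lower, beside 5.48% and 32.2%. The median member difference in the 3 comparisons was 0.15, -0.47 and -0.98, and the median of all genes was 0.27, -0.06 and -0.36. After quantile normalization 1 member, Cyp26b1, was lower in each comparison, beside 13.8%, 12.1% and 12.6% of all genes. The members higher were then 0, 1 and 1, the last both Rarb, beside 10.6%, 9.56% and 13.5% of all genes. Cyp26b1 was the member called in all 3 comparisons under all 8 settings, and no other member was called in any comparison under more than 4 of them. The comparisons share arrays, so their counts are not independent of each other.

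**Figure D3:**
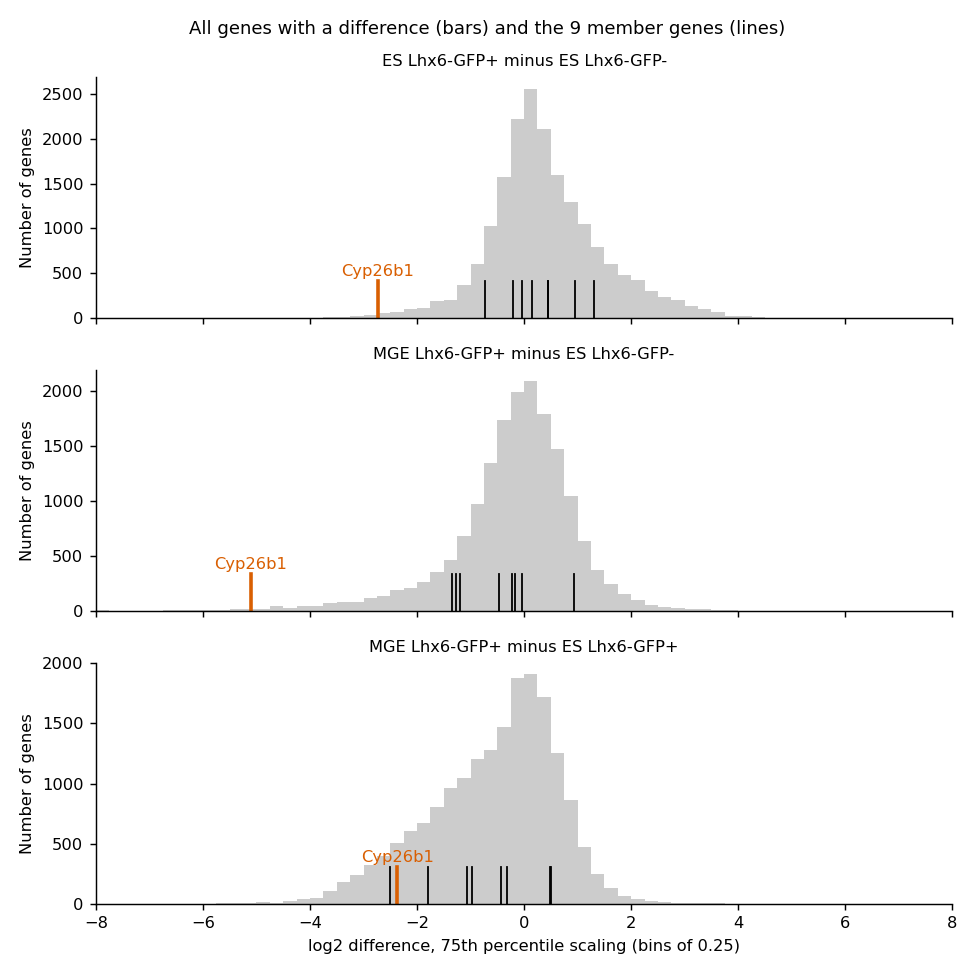
Number of genes (vertical axis) by log2 difference with the 75th percentile scaling (horizontal axis, bins of 0.25) in the 3 comparisons, with a line for each of the 9 member genes and Cyp26b1 in orange. Cyp26b1 is in the far left tail of the upper and middle panels, with 0.56% and 0.41% of genes lower, and inside the broad left side of the lower panel, with 8.79% lower, where the bound of Aldh1a3 (7.47% lower) lies further left.

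The wider pathway was read from 67 further genes, grouped by role, all on the array. Between ES GFP+ and ES GFP- cells, 60 had a value. Of these, 11 were at least 2-fold higher (18.3%) and 10 lower (16.7%), beside 24% and 6.4% of all genes. After quantile normalization 3 of 56 were higher (5.36%) and 17 lower (30.4%), beside 10.6% and 13.8% of all genes. In MGE GFP+ against ES GFP- cells, 6 of 54 were higher (11.1%) and 18 lower (33.3%), beside 9.9% and 17.2% of all genes. After quantile normalization 5 were higher (9.26%) and 15 lower (27.8%), beside 9.56% and 12.1% of all genes. In MGE GFP+ against ES GFP+ cells, 3 of 59 were higher and 22 lower, beside 5.48% and 32.2% of all genes, and after quantile normalization 7 of 54 each (13.0%, beside 13.5% higher and 12.6% lower of all genes). Those higher included Meis1 (2.32-fold), named after its values were seen, and Rai2 (3.08-fold). The 10 genes described next are those at least 4-fold different in a comparison and above the control probes on an array of it.

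Among the genes of retinol transport, 3 were far lower in MGE cells. Rbp4, the plasma carrier of retinol, read 181 in ES GFP+, 467 in ES GFP- and 9.1 in MGE GFP+ cells. Ttr, transthyretin, which binds the Rbp4 complex and is a product of the choroid plexus, read 747, 778 and 2.65. Neither MGE value was well above background, so MGE cells were at least 26.4-fold and at least 44.0-fold below ES GFP- cells. These bounds depend on the setting: the log2 differences were -4.72 and -5.46 with this scaling, -3.64 and -4.36 after quantile normalization, -2.78 and -3.60 with the deposited log2 values and -1.07 and -1.81 with the control probe limit as the floor. Lrp2 (megalin), an endocytic receptor that takes up Rbp4 and is present on forebrain neuroepithelium, read 173, 691 and 24.1, which put MGE cells 19.6-fold and ES GFP+ cells 3.53-fold below ES GFP- cells. The first log2 difference, -4.29, was -3.44 after quantile normalization, -2.48 with the deposited log2 values and -1.64 with the control floor, and the second, -1.82, was -0.70 with the control floor and no longer past 2-fold. Of 7 choroid plexus markers, Ttr among them, 4 exceeded the control probes on each ES-derived array and 2 on the MGE array, and of 6 endoderm markers 1, 4 and 0 did so in ES GFP+, ES GFP- and MGE GFP+ cells. Their part in these differences was not tested.

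Among 25 genes reported to respond to retinoic acid, MGE GFP+ cells were lower than ES GFP- cells in 9 of 20 with a value and higher in 1, beside 17.2% and 9.9% of all genes. The counts were the same after quantile normalization, beside 12.1% and 9.56%. Meis2, a homeodomain gene also known from the lateral ganglionic eminence, read 3163 in ES GFP+, 9800 in ES GFP- and 430 in MGE GFP+ cells, a 15.6-fold difference between the last pair that remained at log2 -3.90 after quantile normalization. The summed level of 10 lateral ganglionic eminence and striatal markers was 12.3, 29.6 and 4.90 times the 75th percentile, while 7, 8 and 7 of them exceeded the control probes. The markers did not move together, with 3 higher and 3 lower by 2-fold between ES GFP+ and ES GFP- cells, and their part in the Meis2 difference was not tested. Hoxa4 read 92.3, 421 and 2.99 and Hoxb4 read 137, 373 and 53.9, so both posterior patterning genes exceeded the control range in ES GFP- cells alone. For 11 hindbrain and spinal cord markers, which include these 2 Hox genes, 6 exceeded the control probes in ES GFP- cells and 2 in each GFP+ population, and 8 were not well above background in MGE cells. Those above them in MGE cells were Gbx2 and Pax2, and the study lists Gbx2 among globus pallidus markers. Summed levels in ES GFP+, ES GFP- and MGE GFP+ cells were 2.45, 4.25 and 3.26 times the 75th percentile. Of 9 with a value, 2 were higher and 4 lower by 2-fold in ES GFP+ than in ES GFP- cells. Whether posterior cells in the aggregates account for the Hox signals was not tested.

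Bhlhe40, a transcriptional repressor, read 186 in ES GFP+, 386 in ES GFP- and 13.2 in MGE GFP+ cells, and the MGE cells were 20.0-fold below ES GFP- cells. That log2 difference, -4.32, was -3.28 after quantile normalization, -2.46 with the deposited log2 values and -0.80, under 2-fold, with the control floor. Rai14 read 348, 1027 and 114, with MGE cells 6.17-fold below. Tgm2, transglutaminase 2, had a mean over 2 probes of 344, 884 and 53.6, and MGE cells were at least 7.42-fold below ES GFP- cells. Its brighter probe alone gave a log2 difference of -0.62, and the control floor gave -1.06. Rai2 was the exception in direction. It read 2509 in ES GFP+, 1890 in ES GFP- and 5952 in MGE GFP+ cells, and MGE cells were 4.61-fold above ES GFP- and 3.08-fold above ES GFP+ cells.

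The other receptors and the proteins they work with were read last. All 10 coregulators, such as the corepressor Ncor1 and the coactivators Ncoa1 and Ep300, had at least 1 probe above the control range in each population. Between MGE GFP+ and ES GFP+ cells 0 of 10 differed by 2-fold, under either scaling. Between MGE GFP+ and ES GFP- cells 2 were higher in MGE cells, Ncoa2 (3.38-fold) and Nrip1 (2.19-fold), named after their values were seen. Between the ES-derived populations 1 reached 2-fold, Ncoa2, at 2.00-fold higher in ES GFP+ cells. Of the 6 genes of other receptors and the alternative binding route, 3 were at least 2-fold lower in MGE GFP+ than in ES GFP- cells, beside 17.2% of all genes. These were Rarg (2.25-fold), Rxra (2.36-fold) and Ppard (2.78-fold), also named after their values were seen. Rarg was within the control range on each array, and Rxra and Ppard exceeded it in ES GFP- cells alone. After quantile normalization 1 was lower, Ppard, beside 12.1% of all genes. Fabp5, which carries retinoic acid to Ppard, was 2.08-fold higher in MGE GFP+ cells, or log2 0.95 after quantile normalization.

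**Figure D4:**
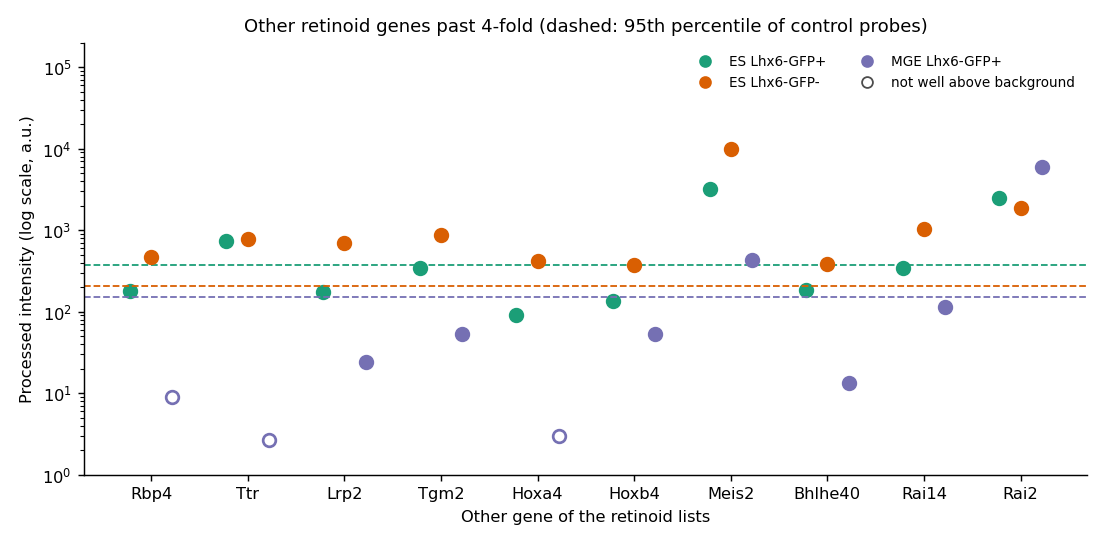
Processed intensity (log axis, arbitrary units; mean over probes) of the 10 other retinoid genes at least 4-fold different in a comparison, on the ES GFP+ (green), ES GFP- (orange) and MGE GFP+ (purple) arrays, with open points not well above background and dashed lines at the 95th percentile of each array's control probes. For 9 of the 10 the ES GFP- point is highest and the MGE point lowest in these unscaled values (scaled, Ttr was log2 0.12 higher in ES GFP+ than in ES GFP- cells, and Hoxb4 was 0.16 higher in MGE than in ES GFP+ cells after quantile normalization), and Rai2 has its highest point, 5952, in MGE cells.

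The pattern of Cyp26b1 over the 3 arrays was most like that of Fkbp10, Mlc1 and Col18a1, among 15547 genes well above background on each array. Their log2 values, centered over the 3 arrays, differed from those of Cyp26b1 by a root mean square of 0.01, 0.02 and 0.05, beside a range of 5.11 for Cyp26b1 itself. Fkbp10, a chaperone of collagen folding, read 121 in ES GFP+, 906 in ES GFP- and 18.2 in MGE GFP+ cells. Mlc1, a membrane protein of astroglia, read 108, 795 and 15.6, and Col18a1, a basement membrane collagen, read 98.2, 775 and 15.8. All 3 exceeded the control range in ES GFP- cells alone. Likeness over 3 points is a description of these arrays.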

How the data were processed

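The member genes and gene lists were chosen with earlier results of these data known. The authors deposited Agilent Feature Extraction output (version 10.7.3.1, array design 028005, per the file headers) of 3 arrays, all on 1 slide and from the same scan, with intensity per spot on a linear scale after background subtraction, and a table of log2 values. Per the labels, RNA was amplified and Cy3-labeled with an Agilent low-input kit for a 4x44K array, while the files hold the 62976 spots of a larger format and the study's methods describe a whole transcriptome amplification. The deposited log2 values (column medians 7.69, 7.68 and 7.69) lay within 0.192 of quantile normalized log2 median spot signals without background subtraction. They run upwards with signal, as the scanner values do, but differences of dim probes can have another sign in them.

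From the scanner files, log2 of the processed intensity was taken with Python 3.11.15 and pandas 2.3.3, outlier-flagged spots (135, 137 and 98) were left out, 0 spots were saturated, repeat spots were averaged and the 75th percentile over mouse probes was subtracted. A probe was well above background where at least 0.5 of its spots were. A dim probe was raised to the lowest value above background on its array, giving a bound, and had no difference where it was dim on both arrays. A bound that ran against its own direction was also left without a difference. A gene's difference is the mean over its probes. Calls used 2-fold and other pathway genes were named from 4-fold. With 1 array per group no test was possible, and precision is limited by the number of arrays. Names came from a RefSeq table of GRCm38.p6, which matched 26582 probes. The 7 alternatives were scaling to the 50th percentile, quantile normalization, normexp with offset 50 and quantile normalization (limma 3.58.1), the deposited log2 values, the brightest probe, no filter on dim probes, and the control probes' 95th percentile as the floor. The mean spot signal planned for normexp is not a column of the files used here, so the median signal was used, a choice made after seeing the files. The difference step was tested on simulated data. Some genes of the lists are not reported here by name.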

Additional observations from a re-analysis of the deposited data

How the results depend on the processing

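No paired analysis was possible because each group has 1 array. Counts are of genes at least 2-fold different, and the cause of a change was not tested. For ES GFP+ against ES GFP- cells, the 1 member higher became 0 under scaling to the 50th percentile, quantile normalization, normexp, deposited values and the control probe floor, and the 1 lower became 2 under the 50th percentile. For MGE GFP+ against ES GFP- cells, 0 higher became 1 under the 50th percentile, quantile normalization, the brightest probe and the control floor, and 4 lower became 2 under the 50th percentile and 1 under quantile normalization, normexp, deposited values and the control floor. For MGE GFP+ against ES GFP+ cells, 0 higher became 2 under the 50th percentile and 1 under quantile normalization and the brightest probe. The 4 lower became 3 under the 50th percentile and the brightest probe, and 1 under quantile normalization, normexp, deposited values and the control floor. With the control floor, 4, 5 and 5 of the 9 members had a value in the 3 comparisons in turn, and Aldh1a3 had none. A fall in a count there can come from genes without a value. With the brightest probe the 4 lower in MGE GFP+ than in ES GFP- cells became 3. Without a filter on dim probes each member count was the same.

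Of the other pathway genes, those higher in ES GFP+ than in ES GFP- cells went from 11 to 5 (50th percentile), 3 (quantile), 0 (normexp), 0 (deposited) and 1 (control floor), and those lower from 10 to 19, 17 and 4 under the 50th percentile, quantile normalization and the control floor. Those lower in MGE GFP+ than in ES GFP- cells went from 18 to 10 (normexp), 11 (deposited) and 7 (control floor). Between MGE GFP+ and ES GFP+ cells, 3 higher became 15 (50th percentile) and 7 (quantile). The 22 lower became 11 (50th percentile), 7 (quantile), 5 (normexp), 5 (deposited) and 2 (control floor). Moves of these counts by up to 1.5-fold are left out. With the control floor, 33, 40 and 30 of the 67 genes had a value in the 3 comparisons in turn, where 60, 54 and 59 did before. Its lower counts can thus come from genes without a value. Of the members and the 10 other genes named from 4-fold, 1 value past 2-fold changed sign: Tgm2 between the ES-derived populations, from -1.19 to 0.058 (log2) with the brightest probe. A bound that turns sign is left without a value, so this count cannot include it. Aldh1a2 between MGE GFP+ and ES GFP+ cells, at log2 -1.80, had no value after quantile normalization for this reason.

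Signals within the control probe range, those of Stra6, Aldh1a2, Aldh1a3 and Cyp26a1, set the limit here: their differences follow the scaling and the background subtraction, and a low transcript level cannot be told apart from none.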
